A study of Homo sapiens with 8 samples.

Results

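*EN1*, its paralog *EN2* and 7 genes for proteins that act with Engrailed on DNA were followed through RNA-seq of SUIT2, a human pancreatic ductal adenocarcinoma (PDA) cell line. The 9 genes are the homeobox genes *EN1* and *EN2*, the corepressor genes *TLE1*, *TLE2*, *TLE3* and *TLE4*, and the TALE homeobox genes *PBX2*, *PBX3* and *MEIS2*. They were found by matching their symbols to NCBI gene numbers, and all 9 were present among the 25702 genes that each library lists. The cells carried a scramble shRNA (shScr, 4 libraries) or an *EN1* shRNA from 1 of 2 constructs, shEn1_1 (2 libraries) and shEn1_2 (2 libraries). The shRNAs were delivered by lentivirus into epithelial tumour cells of a single line, no time after transduction is given in the labels, and nothing says whether libraries of a label came from separate cultures. The p-values below therefore measure only the spread between these libraries, which may be technical.

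Engrailed proteins are homeodomain transcription factors that pattern the midbrain, hindbrain and limb and keep certain midbrain neurons alive. They act mainly as repressors, through a short motif (EH1) that binds the WD repeats of Groucho/TLE corepressors, which in turn bring in histone deacetylases. A hexapeptide next to the homeodomain lets them pair with PBX proteins, TALE homeodomain factors that bind DNA with HOX and Engrailed proteins. MEIS proteins bind PBX, hold it in the nucleus and join it on DNA.

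*EN1* lies on chromosome 2 of GRCh37 (the build also called hg19), on the minus strand from 119599747 to 119605224, and its coding sequence is split over 2 exons. The study measured *EN1* mRNA by RT-qPCR with the following primers, which are shown because they define the spliced transcript that the study took as the readout of its target.
EN1_F: cttcttcagcttcctggtgc
EN1_R: gtggtcaaaactgactcgca
Matched to GRCh37 chromosome 2, each primer of 20 bases was found once. EN1_R matched the gene's own (minus) strand at 119603944 to 119603963, in the coding part of exon 1, and EN1_F matched the plus strand at 119600805 to 119600824, in the coding part of exon 2. The pair spans 3159 bases of genome and 108 bases of spliced coding sequence. The read counts below cover the whole gene and were not split by exon. The shRNA sequences were not used here.

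The libraries held between 33423590 and 37810604 counts, a ratio of 1.13. Levels are given as CPM (counts per 1000000 counts of the library) on library sizes scaled by edgeR's TMM factors, and all 9 genes passed the filter on low counts that left 14333 genes for testing. The cells had the epithelial identity of their label, with all 8 epithelial markers detected in every library at a summed level between 11482 and 18611 CPM, although *MUC1* stayed between 0.756 and 3.38 CPM. The fibroblast markers *COL1A2*, *DCN* and *LUM*, the endothelial marker *CDH5* and the immune markers *PTPRC* and *CD3E* were at 0 counts in all 8 libraries. Between the libraries labelled shEn1 and shScr, edgeR's quasi-likelihood test called 0 genes at a Benjamini-Hochberg adjusted p below 0.05 (0% of those tested), 44 genes (0.307%) at an unadjusted p below 0.05, and DESeq2 called 2 genes at an adjusted p below 0.05. If unadjusted p-values held their level, a share near 0.05 would pass without any difference between labels. In the edgeR fits of all 8 libraries, here and by construct below, the share was far smaller. Their unadjusted p-values thus ran high and are not calibrated, and the cause was not tested. In 60 genes (0.419%) the CPM of the labels did not overlap. Among the 9 genes, 0 passed the adjusted threshold, 0 had an unadjusted p below 0.05 and 0 had labels that did not overlap. The adjusted p was 1.00 for each of the 9 by edgeR's quasi-likelihood test, so only unadjusted p-values are given from here on.

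The targeted gene did not follow its labels. *EN1* was measured at 4.10, 4.50, 4.94 and 2.51 CPM under the label shScr (replicates 1 to 4), at 5.77 and 5.41 CPM under shEn1_1 and at 1.35 and 6.70 CPM under shEn1_2. The lowest and the highest *EN1* of the series were thus both in libraries labelled shEn1_2, and 3 of the 4 libraries labelled shEn1 were above every library labelled shScr. Behind these levels were 53 to 218 counts per library. For the lowest, in shEn1_2 replicate 1, the exact 95% Poisson interval was 1.01 to 1.76 CPM. For the next, in shScr replicate 4, it was 2.03 to 3.07 CPM (these intervals cover counting error only). Both libraries thus lay below the other 6, whose lowest value was 4.10 CPM, beyond counting error. At the high end, the interval of shScr replicate 3 was 4.23 to 5.73 CPM. It overlapped those of shEn1_1 replicates 1 and 2 (5.01 to 6.61 and 4.66 to 6.26 CPM). The interval of shEn1_2 replicate 2 lay clear of it (5.84 to 7.65 CPM). Averaged by label, *EN1* was at 4.01 ± 1.06 CPM for shScr and 4.81 ± 2.37 CPM for shEn1 (SD, n = 4 each), which gave a log2 fold change of 0.26 with a standard error of 0.43. The labels thus differed by less than the libraries within them (unadjusted p = 0.561, edgeR's quasi-likelihood test). Single libraries and the tool moved this value, to 0.57 without shEn1_2 replicate 1 (unadjusted p = 0.0623, the same edgeR test), 0.057 without shEn1_2 replicate 2, 0.089 without shScr replicate 4 and 0.040 with limma-voom (unadjusted p = 0.937). Bulk RNA cannot tell a lower level in every cell from fewer cells with *EN1*. As *EN1* did not separate by label, every library is named by its label, and each direction is a direction between labels.

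**Figure D1:**
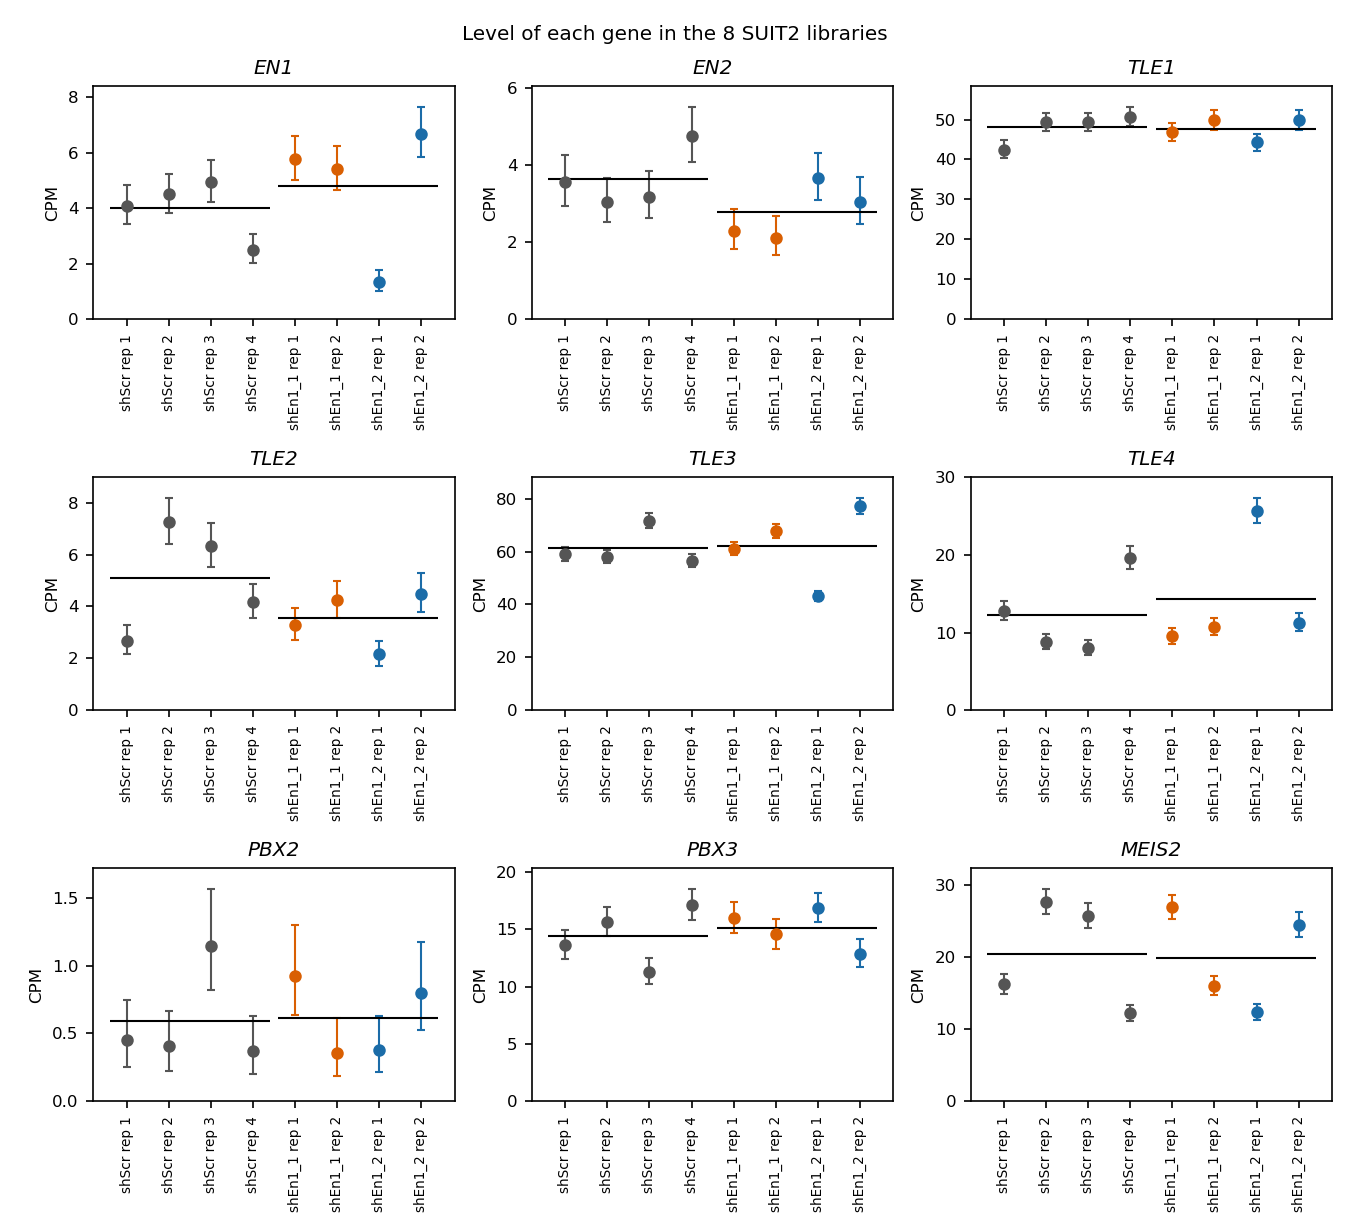
CPM on TMM-scaled library sizes of the 9 genes (one panel each, y axis from 0) in the 8 libraries, with exact 95% Poisson intervals as bars and the mean of each label as a line. Grey is shScr, orange shEn1_1 and blue shEn1_2. *EN1* runs from 1.35 to 6.70 CPM, with its lowest values in the libraries labelled shScr replicate 4 and shEn1_2 replicate 1, the same libraries in which *TLE4* is highest.

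*EN2*, on chromosome 7 from 155250824 to 155257526 (plus strand), encodes a protein with nearly the same homeodomain and is co-expressed with *EN1* in the developing midbrain. Its level was 3.56, 3.05, 3.19 and 4.75 CPM under the label shScr (replicates 1 to 4), 2.30 and 2.12 CPM under shEn1_1, and 3.66 and 3.04 CPM under shEn1_2. Both shEn1_1 libraries were below all others, and the 2 libraries in which *EN1* was lowest had the highest *EN2*. The label means were 3.64 ± 0.775 CPM for shScr and 2.78 ± 0.709 CPM for shEn1 (SD, n = 4 each). The log2 fold change was -0.39 (standard error 0.27, unadjusted p = 0.188 in the edgeR fit), with 1 of 4 shEn1 libraries above the shScr mean. The makeup of the Engrailed counts differed between libraries far beyond counting error. *EN1* gave 71.5% (exact binomial 95% interval 65.9 to 76.7%) and 71.9% (65.9 to 77.3%) of the summed *EN1* and *EN2* counts in the libraries labelled shEn1_1, and 68.8% (63.4 to 73.8%) in shEn1_2 replicate 2. In the libraries labelled shScr replicates 1 to 3 the share was between 53.5% and 60.8%. It was 34.6% (28.9 to 40.5%) in shScr replicate 4 and 26.9% (20.8 to 33.7%) in shEn1_2 replicate 1, where *EN2* counts outnumbered those of *EN1*. The shares of the labels overlapped.

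The TLE proteins are the human Groucho corepressors and have no DNA-binding domain of their own. *TLE1* (chromosome 9, 84198598 to 84304462, minus strand) was the steadiest of the 9 genes. It lay between 42.5 and 50.8 CPM under the label shScr (median 49.4) and between 44.3 and 49.8 CPM under shEn1 (median 48.3), from 1410 to 1901 counts. Its SD of log2 CPM within labels was 0.10, and only 3.87% of the tested genes had a smaller one. The log2 fold change between labels was -0.010 (standard error 0.11, unadjusted p = 0.925 by edgeR), a sign that turned in several alternatives. *TLE3* (chromosome 15, 70340129 to 70390515, minus strand) was at 58.9, 58.1, 71.7 and 56.6 CPM under the label shScr, at 61.1 and 67.8 CPM under shEn1_1, and at 43.2 and 77.1 CPM under shEn1_2. As for *EN1*, the lowest and the highest value were in the 2 libraries of construct shEn1_2. The means of 61.3 ± 7.0 CPM for shScr and 62.3 ± 14.3 CPM for shEn1 (SD, n = 4 each) gave a log2 fold change of 0.022 (standard error 0.17, unadjusted p = 0.901 by edgeR), smaller than the spread between libraries. With limma-voom this sign turned to -0.0070.

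*TLE2* and *TLE4* varied more from library to library. *TLE2* (chromosome 19, 2997637 to 3047633, minus strand) was at 2.68, 7.25, 6.31 and 4.16 CPM under the label shScr, at 3.28 and 4.24 CPM under shEn1_1, and at 2.16 and 4.49 CPM under shEn1_2. All 4 libraries labelled shEn1 were below the shScr mean of 5.10 ± 2.07 CPM (SD, n = 4), but the lowest shScr library was below 3 of them. The log2 fold change of -0.53 was the largest in size among the 9 genes (standard error 0.35, unadjusted p = 0.161 by edgeR). Without shScr replicate 1 it was -0.74 (unadjusted p = 0.0451 by edgeR, adjusted p = 1.00). *TLE4* (chromosome 9, 82186688 to 82341797, plus strand) was at 12.7, 8.79, 8.06 and 19.6 CPM under the label shScr, at 9.50 and 10.7 CPM under shEn1_1, and at 25.7 and 11.3 CPM under shEn1_2. Its 2 highest values were in shScr replicate 4 and shEn1_2 replicate 1, with the other 6 libraries at or under 12.7 CPM. The label means were 12.3 ± 5.29 CPM and 14.3 ± 7.62 CPM (SD, n = 4 each), a log2 fold change of 0.22 (standard error 0.38, unadjusted p = 0.582 by edgeR). Without shEn1_2 replicate 1 it was -0.23 and without shScr replicate 4 it was 0.54, so a single library set its direction.

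Divided by exon length, *TLE1* made up between 52.5% and 56.8% of the summed level of *TLE1* to *TLE4* in every library, and *TLE3* between 22.1% and 33.9%. The share of *TLE4* was 20.1% in shEn1_2 replicate 1 and 13.5% in shScr replicate 4, against 5.54% to 10.3% in the other 6 libraries. *TLE2* gave between 3.37% and 10.4%. The composition of the corepressor transcripts therefore differed between libraries of 1 label mainly in *TLE4*, *TLE3* and *TLE2*, with *TLE1* nearly fixed. These percentages rest on the length of all annotated exons and depend on that choice. By that length the mean levels of *TLE1* and *TLE3* were 9.10 and 4.90 CPM per kb. By the longest transcript they were 11.6 and 7.92 CPM per kb.

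**Figure D2:**
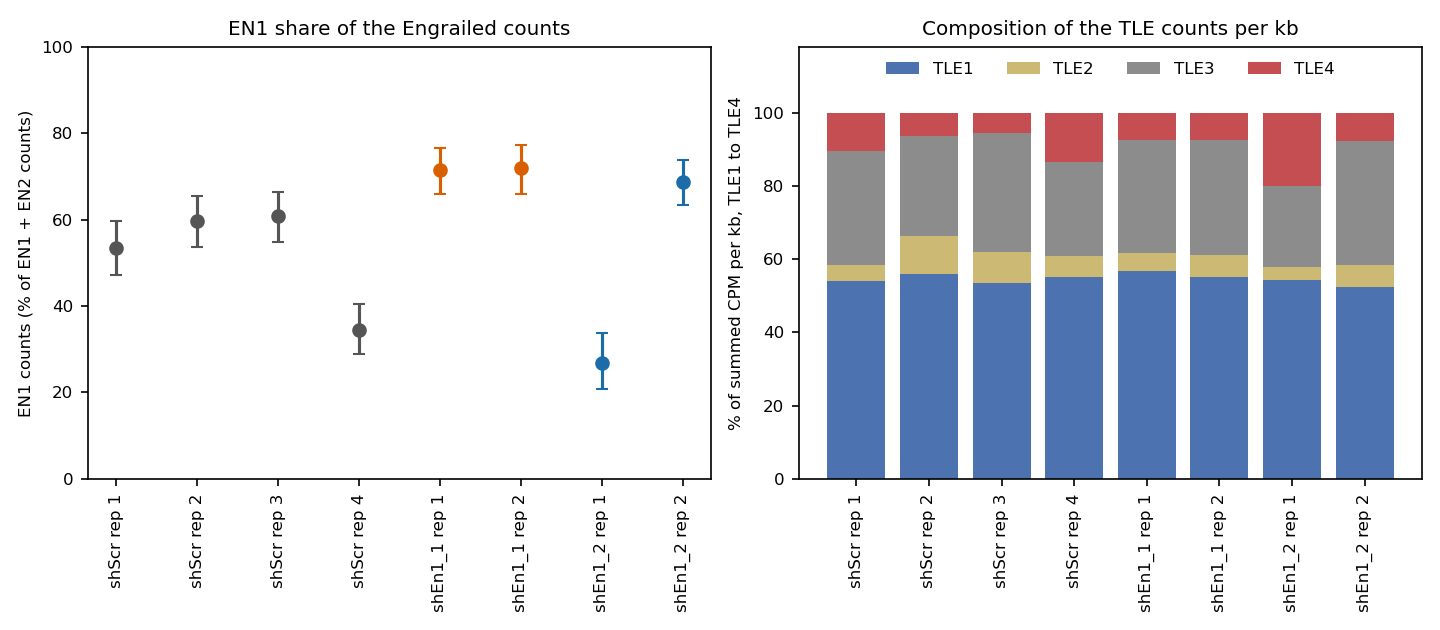
Left, *EN1* counts as a percentage of *EN1* plus *EN2* counts in each library, with exact 95% binomial intervals (grey shScr, orange shEn1_1, blue shEn1_2). Right, the percentage of each TLE gene in the summed CPM per kb of *TLE1* to *TLE4*, by the length of all annotated exons. In the libraries labelled shScr replicate 4 and shEn1_2 replicate 1 the *EN1* share is 34.6% and 26.9% and the *TLE4* share 13.5% and 20.1%.

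Among the TALE genes, *PBX3* (chromosome 9, 128509624 to 128729656, plus strand), a DNA-binding partner of HOX and Engrailed proteins, was at 13.6, 15.6, 11.3 and 17.1 CPM under the label shScr, at 16.0 and 14.6 CPM under shEn1_1, and at 16.9 and 12.9 CPM under shEn1_2. The values of the labels were intermixed, and the SD of log2 CPM within labels (0.22) was below the median of all tested genes (0.28). Label means of 14.4 ± 2.53 CPM and 15.1 ± 1.74 CPM (SD, n = 4 each) gave a log2 fold change of 0.063 (standard error 0.17, unadjusted p = 0.715 by edgeR). *MEIS2* (chromosome 15, 37181405 to 37393500, minus strand), whose product binds PBX, was at 16.3, 27.7, 25.8 and 12.3 CPM under the label shScr, at 26.9 and 16.0 CPM under shEn1_1, and at 12.4 and 24.5 CPM under shEn1_2. Its values formed a higher set of 4 libraries (24.5 to 27.7 CPM) and a lower set of 4 (12.3 to 16.3 CPM), with 2 libraries of each label in each. The log2 fold change was -0.040 (standard error 0.31, unadjusted p = 0.901 by edgeR). In the annotation, 1 gene on the opposite strand overlaps *MEIS2* exons. As second-strand synthesis used dTTP, which leaves no strand mark, reads from it cannot be told apart from those of *MEIS2*.

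*PBX2* (chromosome 6, 32152510 to 32157979, minus strand), which most cell types express, was almost absent from these counts. It had 15, 15, 40 and 14 counts under the label shScr, 33 and 12 under shEn1_1 and 15 and 26 under shEn1_2. The 3 libraries with the most counts were shScr replicate 3, shEn1_1 replicate 1 and shEn1_2 replicate 2, in no order of the labels. That is 0.595 ± 0.370 CPM for shScr and 0.614 ± 0.290 CPM for shEn1 (SD, n = 4 each), and the log2 fold change was 0.047 (standard error 0.54, unadjusted p = 0.933 by edgeR). The gene lies in the major histocompatibility complex, and much of its neighbourhood was poor in counts. Of 138 protein-coding genes between 29 and 33 Mb of chromosome 6, 113 (81.9%) had a median under 10 counts per library, against 33.1% of 836 genes on the rest of the chromosome and 32.8% of 17800 genes on other chromosomes. The adjoining genes *AGER* and *GPSM3* had 2 and 14 counts over all 8 libraries together, and *TUBB*, a beta-tubulin gene that dividing cells transcribe strongly, had 71. Counting was uneven within the region, since *AGPAT1*, close to *PBX2*, kept 236 to 388 counts in each library, and *ATF6B*, a little farther, had 110 and 141 counts under shEn1_1 and 0 to 6 in the other 6 libraries. These neighbours were named after their counts were seen. In the annotation 1 gene on the same strand also overlaps *PBX2* exons. What part the read mapping or counting had in the low *PBX2* counts was not tested, and the level of *PBX2* is best taken as unknown.

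**Figure D3:**
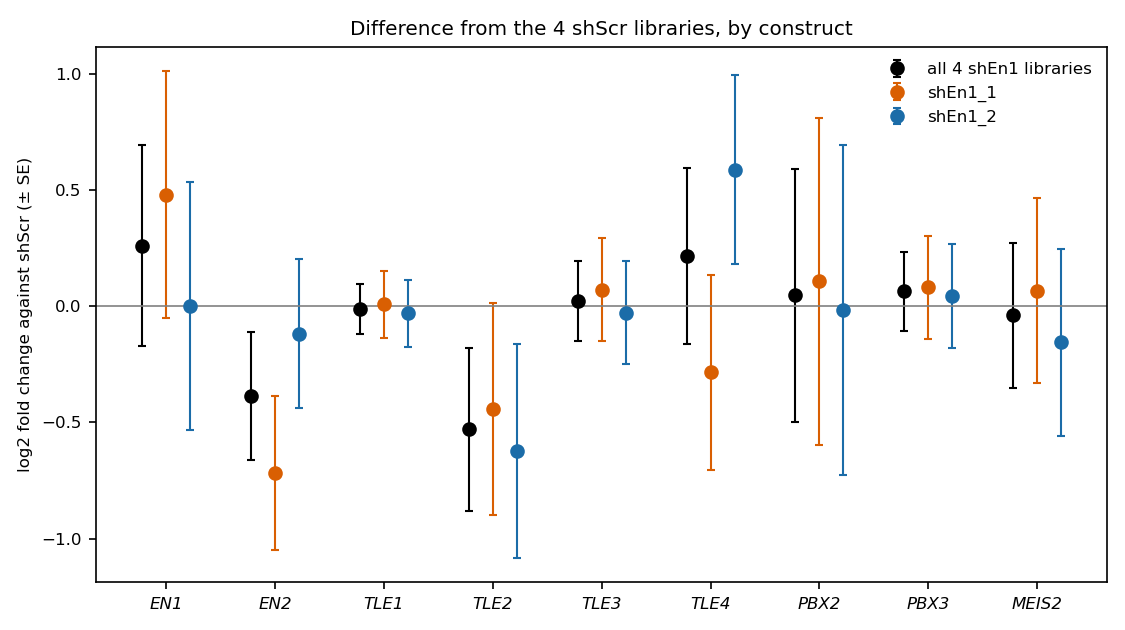
Log2 fold change against the 4 libraries labelled shScr (y axis, points with standard errors) of the 9 genes for all 4 shEn1 libraries (black), shEn1_1 (orange) and shEn1_2 (blue). The pooled values run from -0.53 for *TLE2* to 0.26 for *EN1*, and *EN2* for shEn1_1 (-0.72) is the farthest from 0.

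The constructs were then set apart in 1 fit of 3 groups that share the 4 shScr libraries, which asks whether either shRNA alone went with a difference. At an unadjusted p below 0.05 this fit called 94 genes (0.656% of those tested) for shEn1_1 and 43 genes (0.3%) for shEn1_2, and 0 of the 9 genes in either comparison. For shEn1_1, *EN2* came nearest, at a log2 fold change of -0.72 (standard error 0.33, unadjusted p = 0.0557 by edgeR, and below 0.05 with DESeq2). *EN1* itself had a log2 fold change of 0.48 (standard error 0.53, unadjusted p = 0.389 by edgeR) for this construct. For shEn1_2 the mean *EN1* of 4.02 CPM matched the shScr mean of 4.01 CPM, but was formed by 1.35 and 6.70 CPM. *TLE4* had log2 fold changes of -0.28 for shEn1_1 and 0.59 for shEn1_2. The difference between the constructs was itself tested. It passed an unadjusted p below 0.05 in 153 genes (1.07% of those tested) and in 0 of the 9. The largest difference among the 9 was that of *TLE4*, with a log2 difference of 0.87 between shEn1_2 and shEn1_1 (standard error 0.48, unadjusted p = 0.104 by edgeR), followed by *EN2* with 0.60 (standard error 0.37, unadjusted p = 0.138 by edgeR). With 2 libraries a construct, the standard errors of the differences between constructs, from 0.17 to 0.82 on the log2 scale, left room for large differences in either direction.

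Libraries of unlike labels could resemble each other more than those of 1 label. The libraries labelled shScr replicate 4 and shEn1_2 replicate 1 were the closest pair of all (root mean square log2 distance 0.395), and both lay beyond the same side of the other 6 libraries in 6 of the 9 genes. They were both below in *EN1*, *TLE3* and *MEIS2* and both above in *EN2*, *TLE4* and *PBX3*. Over all tested genes the same held for 38.1%, so a shift in this pair was common in the data as a whole. The gap to the nearest other library was within counting error for *EN2* (3.66 against 3.56 CPM), *TLE3* (56.6 against 58.1 CPM) and *PBX3* (16.9 against 16.0 CPM). Within the pair, *EN1* was at 2.51 CPM in the library labelled shScr and at 1.35 CPM in that labelled shEn1_2, a log2 ratio of -0.90 (95% counting interval -1.41 to -0.40). *TLE4* was at 19.6 and 25.7 CPM, a log2 ratio of 0.39 (0.25 to 0.53). *TLE2*, not shifted as a pair, was at 4.16 and 2.16 CPM, a log2 ratio of -0.95 (-1.35 to -0.56). The next nearest libraries of unlike labels were shScr replicate 2 with shEn1_2 replicate 2 (distance 0.488), shScr replicate 1 with shEn1_1 replicate 2 (0.510) and shScr replicate 3 with shEn1_1 replicate 1 (0.512). These pairs were both beyond the other 6 libraries in 7.67%, 10.7% and 13.9% of tested genes and in 0, 0 and 1 (*PBX2*) of the 9. The log2 ratio of the library labelled shEn1 to that labelled shScr was positive in all 3 for *EN1*, at 0.57 (0.28 to 0.87), 0.40 (0.07 to 0.73) and 0.23 (-0.07 to 0.53). For *TLE2* it was -0.69 (-0.99 to -0.40), 0.66 (0.27 to 1.06) and -0.95 (-1.28 to -0.62), and so differed in direction. These intervals cover counting error of single libraries and give no test of the label. With the nearest pair left out, the *EN1* log2 fold change over 3 against 3 libraries was 0.40 (standard error 0.24, unadjusted p = 0.119 by edgeR), and with shScr replicate 3 and shEn1_1 replicate 1 left out too it was 0.49 (standard error 0.26, unadjusted p = 0.0878 by edgeR). *TLE2* was at -0.44 and -0.19 in these fits, and *TLE4* at 0.087 and 0.029. Whether the pairs are a batch is not stated in the labels.

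Several of the 9 genes were variable within a label and others were not. The median SD of log2 CPM within labels was 0.54 for the 9 and 0.28 for all 14333 tested genes. It was 0.81 for *EN1*, above 90.3% of tested genes, 0.67 for *PBX2*, which rests on few counts, 0.62 for *TLE4* and 0.56 for *TLE2*. In *EN2* (0.32), *TLE3* (0.28) and *PBX3* (0.22) it was near or below the median of tested genes, and in *TLE1* far below it. Counts of *EN1*, *EN2*, *TLE2* and *PBX2* were low, at most 269 in a library, and the mean log2 CPM of *EN1* was 2.02 against a median of 4.52 over tested genes. The part of depth in the spread was not tested. Of the 9 genes, 5 had a positive and 4 a negative log2 fold change between labels, with a median of 0.022, and over all tested genes 7006 were positive and 7327 negative, with a median of -0.0028.

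To set the genes beside each other, CPM was divided by the length of all annotated exons. *TLE1* was highest at 9.10 ± 0.575 CPM per kb (SD over 8 libraries), with no library overlapping the next gene, *TLE3*, at 4.90 ± 0.829 CPM per kb. *PBX3* followed at 3.01 ± 0.416 CPM per kb, and its range touched that of *TLE3*. Next came *MEIS2* at 1.70 ± 0.557, *TLE4* at 1.61 ± 0.745 and *EN1* at 1.54 ± 0.613 CPM per kb, then *TLE2* at 1.04 ± 0.419 and *EN2* at 0.945 ± 0.243 CPM per kb. From *TLE3* down to *EN2* each gene overlapped its next neighbour in range, while genes farther apart in the order could stand clear of each other. Neighbours were not compared library by library, so this overlap does not show that their levels were equal. The counts of *PBX2* gave 0.138 ± 0.0706 CPM per kb, but with its level unknown it was not ranked. In every library, then, the transcripts of the corepressors *TLE1* and *TLE3* exceeded those of *EN1* per length. The order was the same with the length of the longest transcript.

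**Figure D4:**
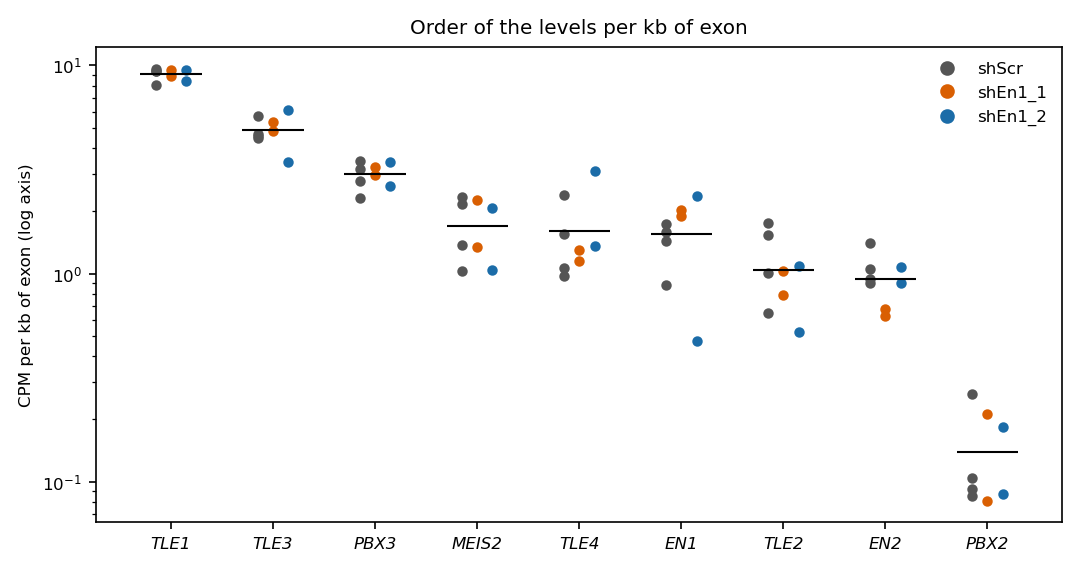
CPM per kb of exon (log axis) of the 9 genes in the 8 libraries, ordered by the mean over libraries (black line), with grey points for shScr, orange for shEn1_1 and blue for shEn1_2. *TLE1* (mean 9.10) stands above all others, *MEIS2*, *TLE4* and *EN1* (means 1.70, 1.61 and 1.54) overlap, and the *PBX2* counts (mean 0.138) are drawn last although the level of that gene is best taken as unknown.

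Other genes of the same machinery were read from 3 lists. Among 12 other TLE and TALE genes, 10 were tested, 6 with a positive and 4 with a negative log2 fold change (median 0.012), and 0 had an unadjusted p below 0.05. Among the named genes, log2 fold changes were 0.23 for *PBX4*, 0.20 for *TLE6* and -0.26 for *PBXIP1*, the gene of a protein that binds PBX factors. *TLE5*, which encodes a short Groucho protein without the WD repeats, was named after its values were seen. It was at 147 and 135 CPM in shScr replicate 4 and shEn1_2 replicate 1 and at 280 to 325 CPM in the other 6 libraries, a log2 fold change between labels of -0.089 (unadjusted p = 0.767 by edgeR). *PKNOX2* was below the filter and *TLE7* was not matched to a symbol here.

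The study discusses 12 nuclear proteins as partners of EN1, among them histone-modifying enzymes and TRIM corepressors. All 12 of their genes were tested, 9 with a positive and 3 with a negative log2 fold change, and 0 had an unadjusted p below 0.05. They moved little, with log2 fold changes from -0.066 for *MED9*, a Mediator subunit, and -0.026 for *SINHCAF*, a subunit of the SIN3 deacetylase complex, to 0.098 for *EZH2*, the H3K27 methyltransferase. Of 12 genes that act with Engrailed at the midbrain and hindbrain boundary or mark midbrain dopaminergic neurons, 2 passed the filter. They were *PAX8*, at 8.32 to 12.3 CPM, and *NR4A2*, at 0.748 to 2.80 CPM, with log2 fold changes of 0.033 and 0.20 and 0 at an unadjusted p below 0.05. *WNT1*, *LMX1B* and *OTX2* were at 0 counts in all 8 libraries, and the other 7, *PAX2*, *PAX5*, *FGF8*, *FGF17*, *GBX2*, *SP8* and *PITX3*, had at most 0.614 CPM in any library.

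Genes that varied like *EN1* were found by the root mean square difference of log2 CPM over the 8 libraries, each gene centred on its own mean. The 5 nearest were *ABTB2*, *OSBP2*, which encodes an oxysterol-binding protein, *REEP6*, *CALHM2* and the growth factor gene *BMP4*, at differences of 0.24 to 0.25. The median over all tested genes was 0.74. A gene that did not vary at all would stand at 0.70, the root mean square deviation of *EN1* from its own mean. The 5 nearest to the mirror image of *EN1* were *PPP1R9A*, *KLF9*, *CABYR*, *RECK*, the gene of a membrane-anchored inhibitor of matrix metalloproteinases, and *MYO7A*, at 0.23 to 0.27. The first 5 had their lowest and the other 5 their highest values in shScr replicate 4 and shEn1_2 replicate 1. *BMP4* was at 47.1 and 38.2 CPM there and at 123 to 141 CPM in the other 6 libraries. *RECK* was at 9.72 and 11.4 CPM there and at 2.13 to 4.19 CPM elsewhere. This largely follows from how the genes were chosen, as *EN1* was lowest in the same pair. Over all tested genes, this pair held the 2 lowest values in 19.2% and the 2 highest in 18.9%. *TLE4* was the nearest of the cofactor genes to the mirror image, at 0.33, which ranked 33 of 14332 genes, and *MEIS2* the nearest to *EN1* itself, at 0.46, ranked 578. The 8 libraries are few and fall into sets, so these are descriptions of likeness without a test.

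**Figure D5:**
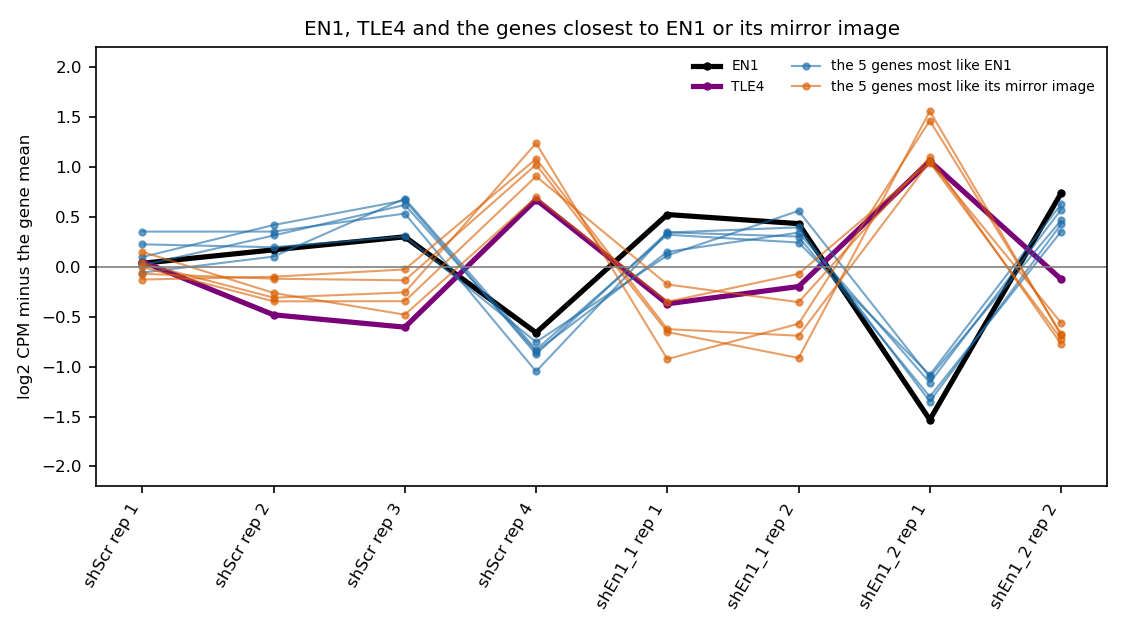
Log2 CPM minus the gene's mean over the 8 libraries (y axis) for *EN1* (black), *TLE4* (purple), the 5 genes most like *EN1* (blue) and the 5 most like its mirror image (orange); lines only join values of a gene, as libraries have no order. *EN1* is at -0.66 and -1.53 and *TLE4* at 0.67 and 1.06 in the libraries labelled shScr replicate 4 and shEn1_2 replicate 1.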

How the data were processed

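RNA was purified by the submitters from SUIT2 cells, and paired-end libraries were sequenced. The deposited values are raw read counts, whole numbers for each gene, which the authors made with HISAT2 and featureCounts. The study's methods give hg19 for human samples, while the submitters' processing notes name only mm9. The annotation and tool versions are not given in the sources used here. Of 25702 Entrez identifiers, 23696 were matched to symbols. Identifiers without a symbol held at most 0.257% of a library's counts.

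Groups followed the labels, and the first number of a shEn1 title was read as the construct. Counts were filtered with edgeR 4.0.16 (filterByExpr, minimum count 10) and scaled by TMM (factors 0.962 to 1.07). They were fitted with the quasi-likelihood test, all 8 libraries in each main fit, with Benjamini-Hochberg adjustment over 14333 genes. Only the fit of shEn1 against shScr was tried on simulated counts, with planted fold changes and independent spread for each gene and library. Those counts held no shifts shared by libraries, such as the data show, so this trial does not cover them. Log2 CPM used a prior count of 2. Exon lengths and positions came from GENCODE annotation lifted to GRCh37. DESeq2 1.42.0, limma 3.58.1, other scalings and filters, a replicate block (without shScr replicates 3 and 4) and left-out libraries were alternatives.

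Named genes were the 9, the 2 highest and 2 lowest log2 fold changes of each list, any gene passing a test, and the 5 nearest to *EN1* and to its mirror image. Some genes that this rule names are not reported here. The 9 genes and the lists were chosen with earlier results of these data known. Murine organoids were not analysed here.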

Additional observations from a re-analysis of the deposited data

Results flagged for a closer look

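In 4 of 18 groups of 4 libraries, 1 library stood far from the other 3 by Dixon's criterion, where chance in normal data gives about 1 in 20. Over all tested genes the same held for 1938 of 28666 such groups (6.76%). *TLE1* was at 42.5 CPM in shScr replicate 1, below the other libraries labelled shScr (49.4 to 50.8 CPM). *TLE3* was at 71.7 CPM in shScr replicate 3, above the other 3 (56.6 to 58.9 CPM). *TLE4* was at 25.7 CPM in shEn1_2 replicate 1, above the other libraries labelled shEn1 (9.50 to 11.3 CPM). *PBX2* was at 1.15 CPM in shScr replicate 3, above the other 3 (0.374 to 0.452 CPM), on 40 counts.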

How the results depend on the processing

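*EN1*, *EN2* and *TLE2* kept their sign between labels in every scaling, filter, tool and left-out library tried, while the signs of the other 6 genes turned in at least 1. *TLE1* turned to 0.054 with the replicate block, a fit that also left out shScr replicates 3 and 4. It turned to 0.048 over 3 against 3 libraries (shScr 4 and shEn1_2.1 left out) and 0.11 over 2 against 2 (shScr 3 and shEn1_1.1 left out too). *TLE3* turned to -0.0070 with limma-voom, and *PBX3* to -0.096 over 2 against 2. The cause was not tested.

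Leaving out each library in turn moved the log2 fold change from 0.057 to 0.57 for *EN1*, -0.55 to -0.23 for *EN2*, -0.064 to 0.021 for *TLE1*, -0.74 to -0.31 for *TLE2*, -0.098 to 0.16 for *TLE3*, -0.23 to 0.54 for *TLE4*, -0.22 to 0.58 for *PBX2*, -0.038 to 0.16 for *PBX3* and -0.22 to 0.14 for *MEIS2*.

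The count of the 9 genes at an unadjusted p below 0.05 went from 0 to 1 over 2 against 2 libraries (*TLE3*, 0.31, where 1512 of 14273 tested genes also passed), and from 0 to 1 across fits leaving out 1 library (*TLE2* without shScr replicate 1, where 63 of 14606 tested genes passed). For shEn1_1 it was 1 with DESeq2 (*EN2*, where 116 of 14333 passed). For shEn1_2 it ran from 0 to 3 across such fits, with 1 (*TLE4*) without shScr replicate 4, where 337 of 14473 genes passed, and 3 (*EN1*, *TLE3*, *TLE4*) without shEn1_2 replicate 2, where 398 of 14603 did, against 43 of 14333 with all libraries. That last fit leaves 1 library of the construct, whose spread is taken from the other groups. Genes with an adjusted p below 0.05 numbered 2 with DESeq2, 1 with the replicate block, 1 over 3 against 3 libraries, 1 over 2 against 2, and 0 to 1 without single libraries, the 1 coming without shScr replicate 4.

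Same-numbered libraries of different labels had deviations correlated between -0.38 and 0.32, so the replicate number does not pair the libraries. The replicate block was fitted on libraries numbered 1 or 2 only, so shScr replicates 3 and 4 were left out. In that fit the log2 fold change was 0.10 for *EN1*, -0.25 for *EN2* and 0.39 for *TLE4*. There 278 of 14747 tested genes had an unadjusted p below 0.05 by edgeR, against 44 of 14333 with all 8 libraries. The part of the block and that of the left-out libraries cannot be told apart. Dividing by the longest transcript gave 11.6 CPM per kb for *TLE1*, 7.92 for *TLE3*, 5.08 for *PBX3*, 3.69 for *MEIS2*, 2.72 for *TLE4* and 1.54 for *TLE2*, in the same order. *PBX2* rests on 12 to 40 counts a library.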
